A study of Sus scrofa with 8 samples.

Results

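The T and NK cell genes CD3D, CD3E, CD2, CD4, CD8A, LCK, GZMA, PRF1, NKG7 and ZAP70 were followed in pig liver before and after the development of dietary steatosis. The members were the rows of the expression table of all samples whose symbol is one of these 10. This gave 10 rows for 9 symbols out of 18103 rows in the table, because GZMA has 2 rows and no row carries the symbol ZAP70, which was not analysed under that symbol. The values were 8 FPKM levels per gene (fragments scaled to transcript length and library size), 4 from the initial state (labelled Control, healthy animals of 4 months, before the diet) and 4 from steatosis (labelled Steatosis, 6 months, after 2 months of diet). All animals were male Landrace x Large White pigs, and each library pooled the RNA of 2 pigs. According to the study's text the same animals make up both groups. The steatotic diet was deficient in methionine, restricted in choline and enriched in cholesterol, sodium cholate and saturated fat. The initial livers were sampled by biopsy and the final ones after euthanasia, so diet, age and way of sampling cannot be told apart.

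T cells recognise antigen through a receptor that signals through the CD3 chains. The co-receptor CD4 or CD8 brings the kinase LCK to the receptor, LCK phosphorylates the CD3 chains, and ZAP70 docks on them. Cytotoxic T cells and NK cells kill their targets with granules that carry perforin, which opens the membrane, and granzymes, which enter and start cell death. The liver holds a large resident population of NK cells and T cells in its sinusoids, beside the Kupffer cells, which are its macrophages. Several genes used to mark lymphocytes are also transcribed by other leukocytes. CD4 is one of them, since human monocytes and macrophages carry it too.

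NKG7 and CD4 rose in steatosis, and the other 8 rows, among them both CD3 chains, CD2, CD8A, LCK, both GZMA rows and PRF1, did not pass the test. NKG7 was 2.56 times and CD4 2.21 times as high in the steatosis mean as in the initial mean. In liver as a whole, more cells of a type and more RNA per cell cannot be told apart. A gene was called when limma gave an adjusted p (Benjamini-Hochberg) under 0.01 and a log2 fold change beyond 1, over the 13175 genes that reached 0.3 FPKM in 4 or more of the 8 libraries. All 10 rows passed this filter. The 2 rows called higher stand against 6.01% of all tested genes called higher, and 0 rows were called lower, against 0.334% of all tested genes. With an adjusted p under 0.05 and no limit on the fold change, the same 2 rows passed, against 26.7% of all tested genes higher and 2.28% lower. The median log2 fold change was 0.31 over the 10 rows and 0.25 over all tested genes. The median ratio scaling divides a library by the median of its gene ratios to the geometric mean library. It moved the median of all tested genes to -0.02 and that of the 10 rows to 0.04. With it the 8 rows not called lay between -0.18 (CD8A) and 0.10 (PRF1). The intervals and p-values below, where no scaling is named, test against 0 and not against this general shift.

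**Figure D1:**
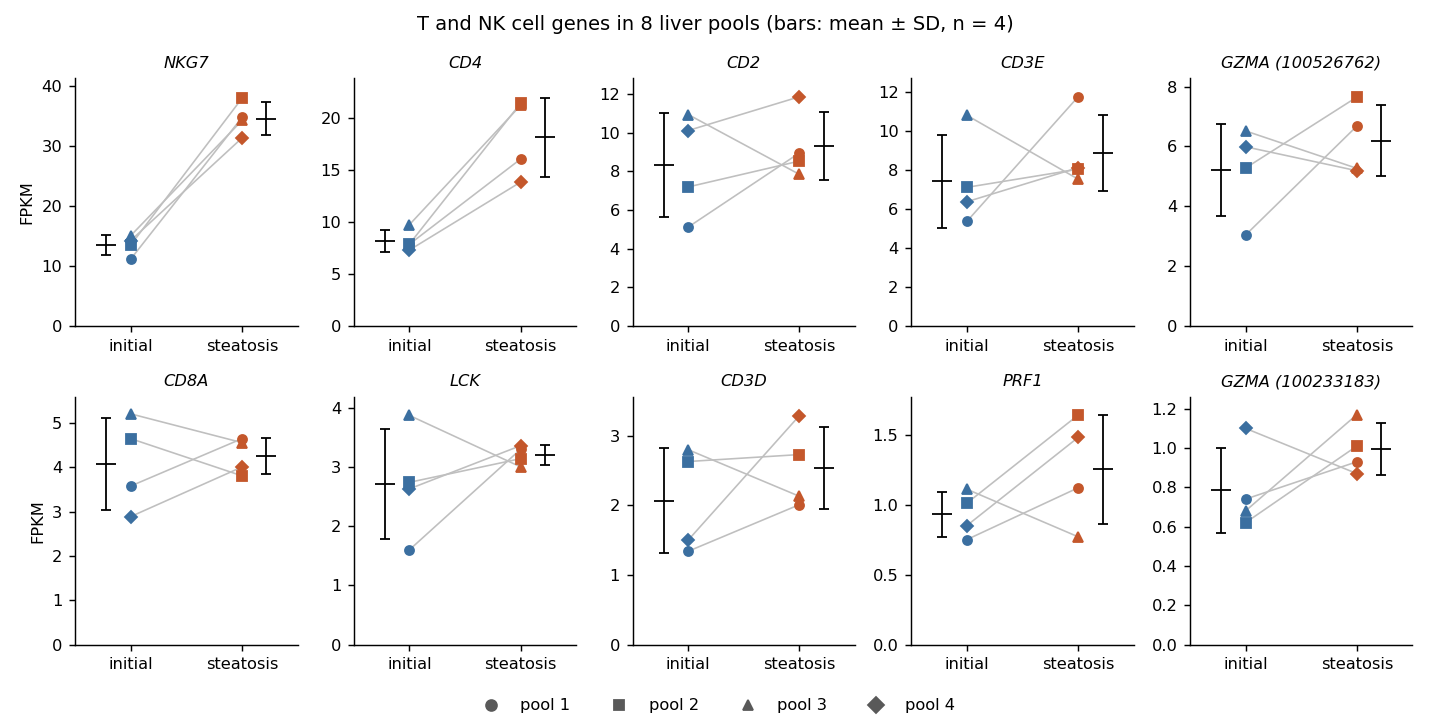
FPKM of each T and NK cell gene row in the 4 initial pools (blue) and the 4 steatosis pools (orange). Grey lines join pools of the same number, and bars show the mean ± SD. The groups are apart for NKG7 and CD4 and overlap in the 8 other panels.

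NKG7 encodes a membrane protein of cytotoxic granules in NK cells and cytotoxic T cells. Its gene (100513287) lies on chromosome 6, from 58496089 to 58497827 in Sscrofa11.1. The FPKM was 11.17, 13.52, 15.09 and 14.27 in initial pools 1 to 4, and 34.81, 38.01, 34.30 and 31.38 in steatosis pools 1 to 4. The lowest steatosis pool was thus above the highest initial pool by a wide margin, and NKG7 had the highest level per length of the members in both groups. The mean was 13.5 FPKM (SD 1.69, n = 4) in the initial state and 34.6 FPKM (SD 2.72, n = 4) in steatosis, a log2 fold change of 1.36 (SE 0.11, 95% CI 1.10 to 1.61, adjusted p = 6.15e-05 from limma). With the median ratio scaling the log2 fold change was 1.08 (limma, adjusted p = 0.000771), still called.

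CD4 encodes the co-receptor of helper T cells. The gene (404704) lies on chromosome 5, from 63892129 to 63918547 in Sscrofa11.1. The FPKM was 7.87, 7.89, 9.75 and 7.31 in initial pools 1 to 4, and 16.07, 21.44, 21.24 and 13.85 in steatosis pools 1 to 4. All steatosis pools were above all initial pools, with pools 2 and 3 the highest after the diet. The mean was 8.21 FPKM (SD 1.06, n = 4) in the initial state and 18.2 FPKM (SD 3.79, n = 4) in steatosis, a log2 fold change of 1.12 (SE 0.16, 95% CI 0.76 to 1.48, adjusted p = 0.00099 from limma). With the median ratio scaling the log2 fold change of CD4 was 0.84 (limma, adjusted p = 0.00675), which no longer passed the limit on the fold change. NKG7 and CD4 were also the 2 of 10 rows whose groups did not overlap with steatosis higher, against 29.6% of all tested genes.

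The CD3 chains, which carry the signal of the T cell receptor, were measured by CD3E and CD3D. Their genes are neighbours on chromosome 9 of Sscrofa11.1, CD3E (397455) from 45619730 to 45633972 and CD3D (396661) from 45640475 to 45644153. CD3E had 5.37, 7.12, 10.82 and 6.38 FPKM in initial pools 1 to 4, and 11.77, 8.05, 7.54 and 8.13 FPKM in steatosis pools 1 to 4. Initial pool 3 and steatosis pool 1 stood above the rest of their groups, and the groups overlapped. The log2 fold change of CD3E was 0.28 (SE 0.22, 95% CI -0.20 to 0.77, adjusted p = 0.355 from limma). CD3D had 1.34, 2.63, 2.80 and 1.5 FPKM in initial pools 1 to 4, and 2.01, 2.73, 2.13 and 3.29 FPKM in steatosis pools 1 to 4. Only steatosis pool 4 exceeded the highest initial pool. The log2 fold change of CD3D was 0.33 (SE 0.26, 95% CI -0.26 to 0.91, adjusted p = 0.369 from limma). Both intervals end below a doubling, which is 1 on this scale.

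CD2, an adhesion receptor of T cells and NK cells (396662, chromosome 4, 103963802 to 103976971), had 5.12, 7.20, 10.95 and 10.12 FPKM in initial pools 1 to 4, and 8.96, 8.54, 7.85 and 11.87 FPKM in steatosis pools 1 to 4. Here initial pools 3 and 4 were above 3 of the 4 steatosis pools. The log2 fold change was 0.20 (SE 0.23, 95% CI -0.32 to 0.72, adjusted p = 0.548 from limma), and its sign turned to -0.08 with the median ratio scaling.

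CD8A, a chain of the co-receptor of cytotoxic T cells (396627, chromosome 3, 57999228 to 58029768), had 3.58, 4.65, 5.21 and 2.89 FPKM in initial pools 1 to 4, and 4.65, 3.81, 4.56 and 4.01 FPKM in steatosis pools 1 to 4. The steatosis pools lay within the range of the initial pools. The log2 fold change was 0.09 (SE 0.18, 95% CI -0.31 to 0.49, adjusted p = 0.735 from limma), the smallest of the 10 rows, and it was -0.18 with the median ratio scaling.

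LCK, the kinase bound to CD4 and CD8 (100233188, chromosome 6, 88719886 to 88745922), had 1.60, 2.74, 3.87 and 2.63 FPKM in initial pools 1 to 4, and 3.30, 3.14, 3 and 3.36 FPKM in steatosis pools 1 to 4. The initial pools spanned 2.42 times from lowest to highest, and the steatosis pools 1.12 times. The log2 fold change was 0.29 (SE 0.22, 95% CI -0.20 to 0.79, adjusted p = 0.346 from limma).

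The killing molecules were not called either. PRF1, perforin (396595, chromosome 14, 73515306 to 73520256), had 0.75, 1.01, 1.11 and 0.85 FPKM in initial pools 1 to 4, and 1.12, 1.64, 0.77 and 1.48 FPKM in steatosis pools 1 to 4. Steatosis pools 1, 2 and 4 were above every initial pool and pool 3 was not. The log2 fold change was 0.36 (SE 0.24, 95% CI -0.17 to 0.88, adjusted p = 0.278 from limma).

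GZMA, a granzyme, has 2 rows whose genes are neighbours on chromosome 16 of Sscrofa11.1, 100233183 from 34262495 to 34272084 and 100526762 from 34282160 to 34290422. Reads that both genes could share would be divided between them by the estimation, so the level of each is uncertain. Gene 100526762 had 3.04, 5.28, 6.52 and 5.99 FPKM in initial pools 1 to 4, and 6.68, 7.65, 5.27 and 5.19 FPKM in steatosis pools 1 to 4, with a log2 fold change of 0.28 (SE 0.23, 95% CI -0.24 to 0.80, adjusted p = 0.385 from limma). Initial pool 1 was the lowest of the 8 libraries here, and the groups overlapped. Gene 100233183 had 0.74, 0.62, 0.68 and 1.10 FPKM in initial pools 1 to 4, and 0.93, 1.01, 1.17 and 0.87 FPKM in steatosis pools 1 to 4, with a log2 fold change of 0.33 (SE 0.20, 95% CI -0.12 to 0.77, adjusted p = 0.238 from limma). It rested on the fewest fragments of all members, an estimated 12 to 23.6 per library, where counting error alone is as large as 28.9% of the value.

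**Figure D2:**
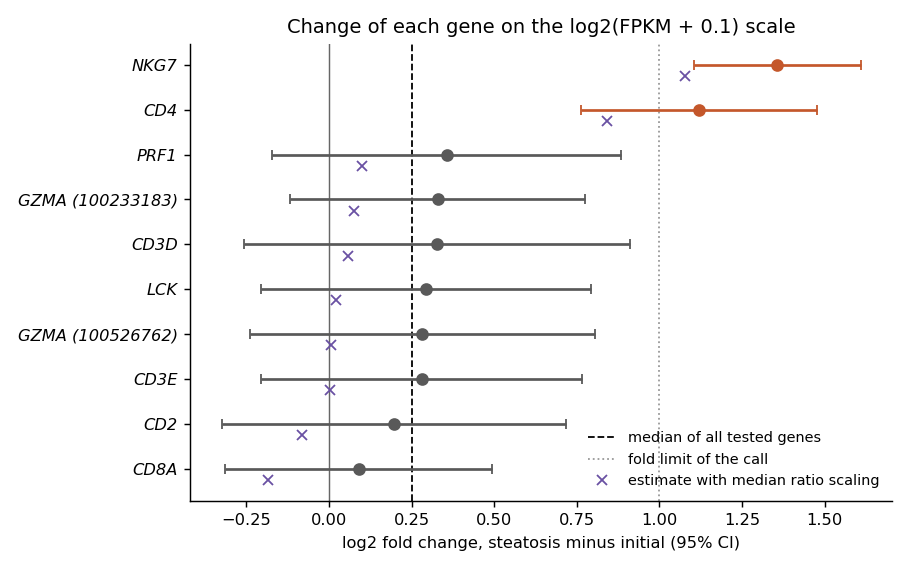
Log2 fold change of each row (steatosis minus initial, on the log2(FPKM + 0.1) scale) with its 95% CI from limma, in orange where called. NKG7 and CD4 lie beyond the fold limit of 1 (dotted line), the other 8 rows lie between 0.09 and 0.36 around the median of all tested genes (dashed line), and crosses show the estimates with the median ratio scaling.

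Since FPKM is given per length, the levels of different members can be ordered. In the initial state the mean level fell from NKG7 (13.5 FPKM) through CD2, CD4, CD3E, GZMA (100526762), CD8A, LCK and CD3D to PRF1 (0.93 FPKM) and GZMA (100233183, 0.785 FPKM). Among the initial pools, only NKG7 over CD2 and CD3D over PRF1 were neighbours in this order whose ranges did not overlap. In steatosis CD4 moved up to the second place, above CD2 in all 4 pools, and NKG7 and CD4 together made up from 54.2% to 63.2% of the summed FPKM of the 10 rows, against 37.2% to 46.9% in the initial pools. The sum of the 8 other rows was 21.5, 31.2, 42.0 and 31.5 FPKM in initial pools 1 to 4, and 39.4, 36.6, 32.3 and 38.2 FPKM in steatosis pools 1 to 4. The highest sum of these 8 rows was thus in initial pool 3.

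The initial pools differed from each other in these genes. Pool 1 was the lowest initial pool in 7 of the 10 rows and pool 3 the highest in 9 of 10. Over all tested genes pool 1 was the lowest in 27.2% and pool 3 the highest in 25.6%. When each steatosis pool was set against the initial pool of the same number, all 10 rows were higher in pool 1, 9 in pool 2, 8 in pool 4 and 3 in pool 3. Over all tested genes the share higher in steatosis was 72.0% in pool 1, 65.9% in pool 2, 81.8% in pool 4 and 69.9% in pool 3. In pool 3 the rows that were higher were NKG7, CD4 and GZMA (100233183). The spread between pools, as the SD of log2(FPKM + 0.1), was smaller in steatosis for 8 of the 10 rows, and likewise for 73.6% of all tested genes. Initial pool 1 also held transcripts of other tissues. The summed FPKM of 7 skeletal muscle genes was 2782 in that pool and at most 20.9 in the other 7 libraries, and that of 8 stomach mucosa genes was 1543 against at most 29.2. Without initial pool 1 the log2 fold change was 1.27 for NKG7 and 1.10 for CD4, both still called. The 8 other rows, none of them called, then lay between -0.013 (CD2) and 0.31 (GZMA 100233183), with 0.14 for CD3E, 0.15 for CD3D, 0.040 for CD8A, 0.073 for LCK, 0.049 for GZMA 100526762 and 0.27 for PRF1.

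Ratios between genes within a library do not depend on the scaling between libraries, and 5 were tested by exact two-sided permutation of the pools, with Benjamini-Hochberg adjustment over the 5. The CD8A to CD4 ratio of FPKM was 0.455, 0.589, 0.534 and 0.395 in initial pools 1 to 4, and 0.289, 0.178, 0.215 and 0.290 in steatosis pools 1 to 4. It was lower in all steatosis pools than in any initial pool, by -1.03 on the log2 scale (exact p = 0.0286, adjusted p = 0.0714, n = 4 against 4). The NKG7 to CD3E ratio was 2.08, 1.90, 1.39 and 2.24 in initial pools 1 to 4, and 2.96, 4.72, 4.55 and 3.86 in steatosis pools 1 to 4. It was higher in all steatosis pools, by 1.08 on the log2 scale (exact p = 0.0286, adjusted p = 0.0714). Neither ratio passed an adjusted p of 0.05, and 0.0286 is the smallest unadjusted p this number of pools allows.

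No difference was detected in the ratio of the killing molecules to CD3E. GZMA (100526762) to CD3E had a mean ratio of 0.712 (SD 0.169, n = 4) in the initial state and 0.714 (SD 0.167, n = 4) in steatosis, with overlapping pools and an exact p of 0.971 (adjusted p = 0.971). PRF1 to CD3E had a mean ratio of 0.129 (SD 0.018, n = 4) and 0.146 (SD 0.055, n = 4), with an exact p of 0.857 (adjusted p = 0.971). CD3E was also set against PTPRC, which encodes CD45 and is transcribed by all leukocytes. This ratio was 0.743, 0.718, 0.886 and 0.732 in initial pools 1 to 4, and 1.0, 0.537, 0.522 and 0.603 in steatosis pools 1 to 4. Steatosis pool 1 was above all initial pools and the other 3 steatosis pools were below them (exact p = 0.286, adjusted p = 0.476).

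**Figure D3:**
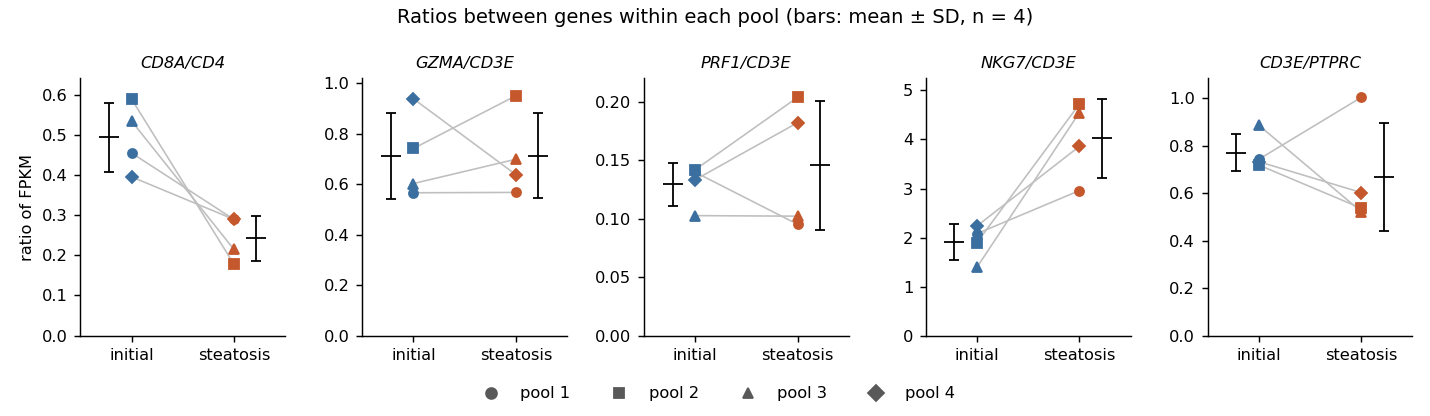
Ratios of FPKM between 2 genes within each library, for the 4 initial pools (blue) and the 4 steatosis pools (orange), with grey lines between pools of the same number and bars for the mean ± SD. CD8A to CD4 and NKG7 to CD3E do not overlap between groups, and GZMA to CD3E, PRF1 to CD3E and CD3E to PTPRC do.

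Other genes of the T and NK pathways were read from 5 lists of 118 symbols, of which 114 had a row and 97 passed the filter. Of these 97 genes, 12 were called higher in steatosis and 0 lower, against 6.01% and 0.334% of all tested genes. The median log2 fold change of the 97 was 0.50, against 0.25 over all tested genes. The count of higher genes was 5 with the median ratio scaling. Over all tested genes that scaling gave 402 higher, against 792 without it.

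In the T cell receptor and signalling list 1 of 25 tested genes was called higher, against 6.01% of all tested genes. This was VAV1, a signalling protein below the receptor that myeloid cells use too. Its FPKM was 2.73, 2.83, 2.99 and 2.81 in the initial pools and 4.96, 6.48, 6.97 and 6.33 in the steatosis pools (log2 fold change 1.09, SE 0.13, limma adjusted p = 0.000344), and it was not called with the median ratio scaling. The genes of highest mean over all 8 libraries in this list were PTPRCAP, which binds CD45 (log2 fold change 0.64, limma adjusted p = 0.0172), CSK, the kinase that restrains LCK (0.50, adjusted p = 0.0273), and CD247, the zeta chain of the receptor complex (0.43, adjusted p = 0.133), and none of them was called. At an adjusted p under 0.05 with no limit on the fold change, 6 of the 25 genes were higher and 0 lower, against 26.7% and 2.28% of all tested genes. Among these 6 were LCP2, an adaptor of the receptor signal (log2 fold change 0.73, limma adjusted p = 0.00299), CD27, a co-stimulatory receptor (0.74, adjusted p = 0.0235), and FYN, a kinase related to LCK (0.55, adjusted p = 0.00639), named after their values were seen. CD3G and CD8B, partners of the members and likewise named after their values were seen, had log2 fold changes of -0.03 (SE 0.19) and 0.09 (SE 0.23), and neither passed either limit by limma.

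The chains of the T cell receptor itself are described in the files under symbols that the lists do not hold, and were looked up after the values of the members were seen. The alpha chain gene 102158035 had 9.88, 17.56, 19.84 and 11.72 FPKM in initial pools 1 to 4, and 19.39, 17.51, 12.43 and 16.90 FPKM in steatosis pools 1 to 4. As for the members, initial pools 1 and 3 were the lowest and the highest of their group. The beta chain gene 100621559 had 7.78, 9.82, 15.89 and 11.08 FPKM before the diet, and 18.38, 12.31, 11.84 and 16.47 FPKM after it. The log2 fold changes were 0.20 (SE 0.23, limma adjusted p = 0.523) for the alpha chain and 0.42 (SE 0.22, limma adjusted p = 0.172) for the beta chain. The delta chain gene 102160313, of the gamma delta T cells that are numerous in pigs, had 2.87, 3.03, 5.89 and 4.19 FPKM before the diet and 7.81, 3.98, 6.67 and 7.43 FPKM after it (log2 fold change 0.70, SE 0.27, limma adjusted p = 0.0751). None of these 3 genes was called. New transcripts described as further beta or gamma chains numbered 8, with log2 fold changes from 0.10 to 1.22 and limma adjusted p from 0.0169 to 0.866, and 0 of them were called. A gene described as the kinase ZAP-70 (100739325), outside the rule because its symbol differs, had 0.83, 1.03, 1.92 and 1.07 FPKM before the diet and 1.59, 1.18, 1.53 and 1.74 FPKM after it, with a log2 fold change of 0.35 (SE 0.24, limma adjusted p = 0.303).

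In the cytotoxic granule list 2 of 14 tested genes were called higher, against 6.01% of all tested genes. SRGN, the proteoglycan core of granules in many blood cells, had 22.27, 26.41, 24.82 and 24.30 FPKM before the diet and 81.07, 110.07, 86.77 and 76.47 FPKM after it (log2 fold change 1.84, SE 0.12, limma adjusted p = 1.74e-05). UNC13D, which primes granules for release, had 3.91, 4.25, 4.79 and 2.18 FPKM before the diet and 17.40, 10.75, 12.87 and 13.90 FPKM after it (log2 fold change 1.87, SE 0.24, limma adjusted p = 0.000553). Both genes had no overlap between groups. CTSC, the protease that activates granzymes, was above SRGN in all 4 initial pools and below it in steatosis, and was not called (log2 fold change 0.51, limma adjusted p = 0.0505). At an adjusted p under 0.05 with no limit on the fold change, 26.7% of all tested genes were higher and 2.28% lower. In this list 8 of the 14 genes were higher and 0 lower. The granule proteases and granulysin of this list, named after their values were seen, were spread. GZMM had a log2 fold change of 0.73 (limma adjusted p = 0.0303) and CTSW of 0.64 (adjusted p = 0.029), while GZMH had 0.68 (adjusted p = 0.123), GNLY, granulysin, 0.24 (adjusted p = 0.52), GZMB 0.07 (adjusted p = 0.769) and GZMK -0.11 (adjusted p = 0.654).

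In the list of NK receptors and adaptors 4 of 16 tested genes were called higher, against 6.01% of all tested genes. TYROBP, the adaptor DAP12 of activating receptors in NK cells and in macrophages, had 36.72, 45.21, 45.06 and 44.04 FPKM before the diet and 119.27, 120.08, 111.69 and 111.56 FPKM after it (log2 fold change 1.44, SE 0.09, limma adjusted p = 1.55e-05). FCER1G, the Fc receptor gamma chain of myeloid cells and NK cells, had 45.40, 72.26, 67.22 and 75.29 FPKM before the diet and 158.93, 152.98, 161.73 and 156.47 FPKM after it (log2 fold change 1.30, SE 0.15, limma adjusted p = 0.000316). FCGR3A, the Fc receptor CD16 of NK cells and macrophages, had a log2 fold change of 1.2 (SE 0.12, limma adjusted p = 0.000173). SLAMF6, a receptor of lymphocytes, had 1.04, 1.61, 1.95 and 1.28 FPKM before the diet and 2.67, 3.84, 3.28 and 2.87 FPKM after it (log2 fold change 1.08, SE 0.20, limma adjusted p = 0.00384). Of the 4 called genes, 3 are also used by myeloid cells, and the part of those cells in these changes was not tested. With the median ratio scaling 2 of the 4 calls remained, TYROBP (1.16) and FCER1G (1.02), while FCGR3A (0.92) and SLAMF6 (0.81) were under the fold limit. At an adjusted p under 0.05 with no limit on the fold change, 26.7% of all tested genes were higher and 2.28% lower. In this list 6 of the 16 genes were higher and 0 lower. The other two were NCR1, which encodes NKp46 (log2 fold change 0.73, limma adjusted p = 0.0206), and KLRB1, which encodes CD161 (0.73, adjusted p = 0.0353), named after their values were seen. KLRK1, which encodes NKG2D (0.36, SE 0.23), and KLRD1, which encodes CD94 (-0.63, SE 0.30), likewise named after their values were seen, passed neither limit by limma. The files describe other genes as CD94 too, so KLRD1 may share reads with them. A gene outside the lists that the files describe as killer cell lectin-like receptor B member 1B (100520491) had 3.76, 4.71, 3.97 and 4.58 FPKM before the diet and 17.40, 18.21, 15.85 and 14.28 FPKM after it, a log2 fold change of 1.92 (SE 0.12, limma adjusted p = 1.17e-05), and was likewise chosen after its values were seen.

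In the list of transcription factors 0 of 14 tested genes were called by limma in either direction. Of all tested genes 6.01% were called higher and 0.334% lower. At an adjusted p under 0.05, 1 gene was higher, against 26.7% of all tested genes. That gene was FOXP3, the factor of regulatory T cells, with 0.14, 0.18, 0.13 and 0.09 FPKM before the diet and 0.72, 0.36, 0.30 and 0.46 FPKM after it (log2 fold change 1.21, SE 0.28, limma adjusted p = 0.0109). Its groups did not overlap, but all values were under 1 FPKM. Only its steatosis pools reached the 0.3 FPKM of the filter, so the gene was tested only because of its higher group. No conclusion is drawn from its adjusted p. Of the genes of high level, ETS1 (log2 fold change 0.11, limma adjusted p = 0.574) and TCF7 (-0.19, adjusted p = 0.558) were not called.

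In the list of cytokines, their receptors, homing and checkpoint molecules 5 of 28 tested genes were called higher, against 6.01% of all tested genes. IL2RG, the common gamma chain of the interleukin receptors of lymphocytes, had 5.50, 6.46, 9.13 and 6.74 FPKM before the diet and 15.51, 16.72, 13.47 and 18.06 FPKM after it (log2 fold change 1.2, SE 0.16, limma adjusted p = 0.00068). HAVCR2, the checkpoint receptor TIM-3 of T cells and myeloid cells, had a log2 fold change of 1.34 (SE 0.18, limma adjusted p = 0.000828). ITGAL, the alpha chain of the leukocyte integrin LFA-1, had 1.12 (SE 0.18, adjusted p = 0.0018). CCL4, a chemokine, had 1.01 (SE 0.23, adjusted p = 0.00974). At an adjusted p under 0.05 with no limit on the fold change, 26.7% of all tested genes were higher and 2.28% lower. In this list 15 of the 28 genes were higher and 0 lower. These 15 include IL12RB1, with at most 0.27 FPKM in the initial pools and 0.40 to 0.51 FPKM in steatosis. Like FOXP3 it was tested only because of its higher group, and no conclusion is drawn from its adjusted p. The calls of this list numbered 1 with the median ratio scaling, which was HAVCR2 (1.09), 1 with the upper quartile scaling, 2 with a pseudocount of 1, and 3 without steatosis pool 2 or without steatosis pool 4.

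**Figure D4:**
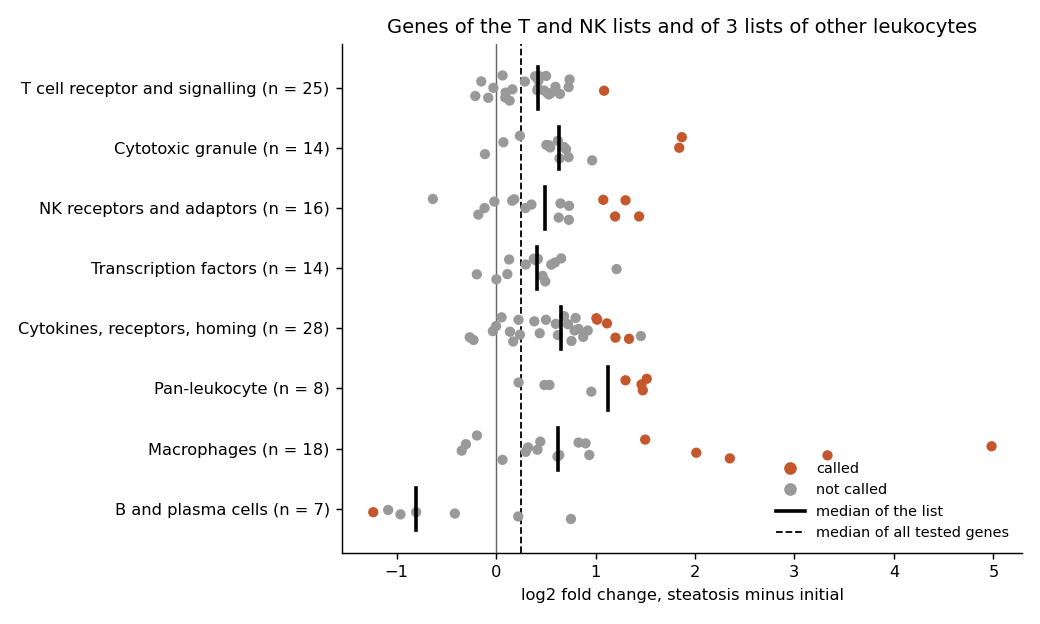
Log2 fold change (steatosis minus initial) of each tested gene in the 5 T and NK lists and in lists of pan-leukocyte, macrophage and B and plasma cell genes. Orange points are called, black bars are medians of each list and the dashed line is the median of all tested genes. The pan-leukocyte list has the highest median at 1.13 and the B and plasma cell list the lowest at -0.80.

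The lists of other leukocytes differed in their counts. Of all tested genes 6.01% were called higher and 0.334% lower. In the pan-leukocyte list 4 of 8 genes were called higher, with a median log2 fold change of 1.13, and its summed FPKM was 95.4 to 142 in the initial pools and 234 to 278 in the steatosis pools. LAPTM5, LCP1 and CD53, its genes of highest mean over all 8 libraries, had log2 fold changes of 1.47, 1.46 and 0.96, the first and second called by limma. CD52, which was above LCP1 and CD53 in the initial mean, had 0.49 and was not called. In the macrophage list 5 of 18 genes were called higher, with a median of 0.63. Its summed FPKM was 1153 to 1516 in the initial pools and 1629 to 1833 in the steatosis pools. TREM2, among these 5, had at most 0.29 FPKM in the initial pools, so it was tested only because of its higher group. The count was 4 when a gene had to reach 0.3 FPKM in 7 libraries. In the B and plasma cell list 0 of 7 tested genes were called higher and 1 lower, MS4A1, with a median of -0.80 and a summed FPKM of 21.8 to 55.9 and 17.2 to 23.4. The call of MS4A1 (limma adjusted p = 0.00937) held without initial pool 1 and was lost when any of the other 7 libraries was left out. JCHAIN, the gene of highest mean level in that list, had 14.41, 27.84, 38.25 and 17.21 FPKM before the diet and 13.31, 10.74, 9.77 and 12.98 FPKM after it. Within the initial state it was thus lowest in pool 1 and highest in pool 3, as were most members. In none of these 3 lists was a gene at 0 in all libraries. The red blood cell list had a summed FPKM of 264 to 1304 in the initial pools, highest in pool 3, and of 138 to 431 in the steatosis pools. The part of these cell types in the changes of NKG7, CD4 and the T and NK lists was not tested.

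The genes most like the members over the 8 libraries were found by the correlation of each of 11144 genes with the mean profile of the 10 rows. Over all 8 libraries the nearest were IP6K1 (Pearson r = 0.99), HACD2 (0.98), KIAA1161 (0.98), ZNF623 (0.98) and SPPL3 (0.98). With the group means removed, STX4 (0.98), IP6K1 (0.98) and ZNF182 (0.97) came first, followed by P4HA2, LOC100626988, MARVELD3 and ZNF623. IKZF3, the lymphocyte factor Aiolos (0.96), was number 8 and RCCD1 number 9. LOC100620198, described as the adaptor TRAT1 of the T cell receptor (0.96), was number 10. This profile was -0.37 in initial pool 1 and 0.34 in initial pool 3. In the other pools it lay between -0.098 and 0.089, so these correlations rest mainly on those 2 initial pools. These are descriptions over 8 points from the same libraries. Each member is part of the profile, so its own r is not independent of it. Among the members, LCK followed the profile most closely with the group means removed (r = 0.97), and CD4 (0.32) and GZMA 100233183 (-0.21) least.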

How the data were processed

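The files hold liver RNAseq of 8 pools of 2 pigs. The authors filtered the reads, aligned them by HISAT2 2.0.4 to Sus scrofa 11.1, assembled transcripts with StringTie and quantified them with Bowtie2 2.2.5 and RSEM 1.2.12. The authors deposited FPKM, which was used here without further scaling. The deposited comparisons of single pool pairs (fold changes and p values of the authors) were not used. Low FPKM values step by 1 fragment, which gave an estimated depth of 20400000 to 22200000 fragments per library.

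limma 3.58.1 in R 4.3.3 was fitted with a mean-variance trend on log2(FPKM + 0.1), group as the only term, over genes reaching 0.3 FPKM in 4 or more libraries, and was tested on simulated data. A fold change on this scale understates that of genes near 0.1 FPKM. p-values measure the spread between pools. Ratios were tested in Python 3.11.15 by exact permutation. Plots used matplotlib 3.10.9. Gene IDs were matched to RefSeq genes of Sscrofa11.1 for coordinates. No sequences were used here.

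The members and lists were chosen with earlier results of these data known. The genes named were all members, called genes of each T and NK list (with the 3 of highest level where fewer than 3 were called), at most 3 of highest level from other lists, the 10 genes most like the members by each measure, and those said to be chosen after their values were seen. A few genes that this rule names are not reported here. Deviations from the group means had a correlation of 0.16 between the initial and steatosis pools numbered 1, of 0.35 for number 2, 0.32 for number 3 and 0.25 for number 4. Pools of different number are not set beside these values and the labels state no pairing. The correlations therefore do not show that equal numbers mark the same pigs. The pool numbers, taken from the labels, were treated as pairing the libraries in an alternative fit only. The other alternatives were scaling (common sum, upper quartile, median ratio), filter, pseudocount, an adjusted p of 0.05 and each library left out. Of the tested markers, 0 of 7 were called higher for dendritic cells, 1 of 5 for neutrophils and 0 of 2 for platelets. For endothelium, hepatocytes and stellate cells it was 0 of 8, 0 of 9 and 1 of 7, and 0 were lower in any of these lists. Over all tested genes 6.01% were called higher and 0.334% lower. Lists this short cannot show an absence of change.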

Additional observations from a re-analysis of the deposited data

Results flagged for a closer look

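A value far from the other 3 pools of its group was found in 10 of 124 groups of 4 examined. Chance gives about 1 in 20 for independent, normally distributed values. These groups share libraries and some hold values at 0, so no excess is read from the count. CD3E was 11.77 FPKM in steatosis pool 1, above the other 3 steatosis pools. The log2 ratio of CD3E to PTPRC was -0.17 in initial pool 3, the highest initial pool. A T cell receptor gamma chain transcript (BGI_novel_G000313) was 3.69 FPKM in initial pool 3, likewise the highest. TYROBP was 36.72 FPKM in initial pool 1, the lowest of its group. CTSC was 55.14 FPKM in initial pool 4, the highest of its group. The muscle genes ACTA1, CKM and TNNC2 stood at 1439.17, 557.11 and 223 FPKM in initial pool 1, and ACTA1 and TNNC2 at 0.04 and 0.06 FPKM in steatosis pool 1, where the other 3 steatosis pools are listed at 0.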

How the results depend on the processing

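NKG7 was called under all 17 alternatives (log2 fold change 1.08 to 1.41, limma adjusted p 4.70e-05 to 0.00361). CD4 was called under 14 of 17 (0.84 to 1.24, adjusted p 0.000886 to 0.00955), so that 1 member was higher with the upper quartile scaling (CD4 at 0.88), with the median ratio scaling (0.84) and with the median ratio scaling and replicate block together (0.84), the last chosen after seeing the data. The sign of CD2 turned to -0.041, -0.080 and -0.080 under these 3 settings and that of CD8A to -0.15, -0.18 and -0.18, with no call by limma. Leaving out single libraries gave -0.013 (without initial pool 1) to 0.35 for CD2 and -0.060 (without initial pool 4) to 0.22 for CD8A. The genes called higher in the T and NK lists numbered 5 under each of these 3 settings. They numbered 7 with a pseudocount of 1 and 36 at an adjusted p under 0.05. The 36 include FOXP3 and IL12RB1, and the other lists TREM2, which were tested only because of their higher group. Over all tested genes the median ratio scaling gave 402 higher, against 792 without it. At an adjusted p under 0.05, 26.7% of all tested genes were higher and 2.28% lower. In the other lists, 31 genes were higher and 5 lower at an adjusted p under 0.05, and the lower genes numbered 2 with the median ratio scaling and with a pseudocount of 0.01, and 0 without a filter and with a pseudocount of 1. Leaving out single libraries gave 2 members higher each time, 9 to 13 higher T and NK genes, and 10 to 14 higher and 0 to 2 lower genes in the other lists.

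For the ratios, leaving out single libraries gave log2 differences of -1.13 to -0.89 for CD8A to CD4, 0.94 to 1.21 for NKG7 to CD3E, -0.47 to -0.16 for CD3E to PTPRC, -0.14 to 0.14 for GZMA to CD3E and -0.10 to 0.25 for PRF1 to CD3E. Without steatosis pool 1 the first 3 had an adjusted p of 0.0476 each by the exact permutation test. CD8A to CD4 and NKG7 to CD3E had the smallest possible exact p with all pools too, so only their adjustment changed. CD3E to PTPRC reached it only once the steatosis pool above all initial pools was left out. This setting therefore adds no support for the 3 differences. With a pseudocount of 1, GZMA to CD3E was -0.012 and PRF1 to CD3E -0.040. The replicate block, which pairs pools by number, gave log2 fold changes of 1.36 for NKG7 and 1.12 for CD4, kept 2 members higher and changed no call of a member or ratio. Its sign-flip test of 4 pairs cannot go below 0.125. The cause of these changes was not tested. Depth limits CD3D, PRF1 and GZMA (100233183) most.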
